A study of Mus musculus with 6 samples.

Results

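The genes described here make and sense prostaglandins. They are Pla2g4a, which releases the fatty acid precursor, the cyclooxygenase genes Ptgs1 and Ptgs2, the PGE2 synthase genes Ptges, Ptges2 and Ptges3, the prostacyclin synthase gene Ptgis, and the PGE2 receptor genes Ptger1, Ptger2 and Ptger4. They were chosen by symbol, and all 10 were found among the 22375 rows of the deposited expression table. RNA-seq was done on C2C12 cells, a mouse myoblast line, in 2 groups of 3 libraries. The CON group was left unstretched, and the 4H group was stretched cyclically at 15% elongation for 4 h. Both groups were the same purchased line, and the labels name no genetic change or drug. Cells for stretching were seeded near confluence on elastic plates coated with poly-lysine. Whether CON cells were plated the same way is not stated in the sources used here. A single cultured line lacks the other cell types of muscle tissue. The labels do not say whether the libraries of a group came from separate cultures, so p-values measure only the spread between these libraries.

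Prostaglandins are short-lived lipid signals. Phospholipase A2 frees arachidonic acid from membranes, a cyclooxygenase turns it into PGH2, and terminal synthases turn PGH2 into PGE2, prostacyclin and other prostanoids, which leave the cell and act on G protein-coupled receptors of the same or neighbouring cells. Ptgs1 is usually described as the constitutive cyclooxygenase and Ptgs2 as the inducible one. In skeletal muscle, prostanoids are known to act on the proliferation, migration and fusion of myoblasts.

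Values are FPKM, a read density scaled to transcript length and to the size of the library, which allows levels to be compared between genes. Differences are log2 fold changes, 4H minus CON, on the log2(FPKM + 0.5) scale, which understates changes of genes at low level, and their p-values are from limma with Benjamini-Hochberg adjustment over 11593 genes, those whose mean reached 0.5 FPKM. A gene is said to have risen or fallen at an adjusted p of at most 0.05, and to be differentially expressed when its log2 fold change was also at least 1 in either direction. The myoblast genes Myod1, Myf5, Des and Cdh15 were expressed, at means of 11.7, 12.8, 80.2 and 9.86 FPKM, and Pax7 averaged 0.440 FPKM. The summed level of these 5 myoblast markers was 100.2 to 100.8 FPKM in CON and 127.2 to 132.5 FPKM in 4H, most of it Des. Within the list Myod1 rose from 5.13 ± 0.573 to 18.2 ± 0.738 FPKM and Myf5 fell from 15.8 ± 0.851 to 9.82 ± 1.13 FPKM. Among 5 macrophage markers, Ptprc and Adgre1 were at 0 in all 6 libraries, while the sum of the list was 6.73 to 8.51 FPKM in CON and 16.5 to 18.6 FPKM in 4H, most of it Cd68. Csf1r, of the same list, was at 0, 0 and 0.0272 FPKM in CON and 1.48, 0.966 and 0.792 FPKM in 4H. The 4 endothelial markers summed to 0.101 to 0.122 FPKM in CON and 0.254 to 0.387 FPKM in 4H, and the 4 epithelial markers to 0.0401 to 0.117 FPKM and 0.319 to 0.553 FPKM. The sum was 7.47 to 9.27 FPKM in CON and 11.1 to 11.7 FPKM in 4H for 4 adipocyte markers, and 1.80 to 2.40 FPKM and 3.09 to 3.74 FPKM for 7 markers of differentiated muscle. Of the muscle markers, the 2 tested, Acta1 and Mymk, rose, by 0.59 and 0.57 on the log2 scale. Tnnt3, below the filter, went from a mean of 0.0779 FPKM in CON to 0.401 FPKM in 4H. Myog, also below the filter, was lower in 4H, at 0.281, 0.136 and 0.235 FPKM in CON and 0.0794, 0 and 0 FPKM in 4H. The part of Cd68 and the other marker genes in the differences below was not tested. In bulk RNA, a change in every cell and a change in some of the cells cannot be told apart.

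Ptgs2 and Ptger4 had the largest log2 fold changes of the members tested, and their promoters are shown because the 2 genes rose together. Their sequences, and those of the other members, were taken from RefSeq promoter windows of 250 bases before to 50 bases after a gene start on GRCm38.p6. Windows were found for 8 of the 10 members, not for Ptger1 and Ptgis. The 250 bases before the start of Ptgs2 lie at chr1:150099781-150100030 on the plus strand and hold 61.6% G and C. Those before the start of Ptger4 lie at chr15:5244188-5244437 on the minus strand, hold 66.8% G and C, and have a CCAAT box, in capitals, that begins 75 bases before the start. Both are written 5′ to 3′ on the strand of the gene.
Ptgs2 upstream: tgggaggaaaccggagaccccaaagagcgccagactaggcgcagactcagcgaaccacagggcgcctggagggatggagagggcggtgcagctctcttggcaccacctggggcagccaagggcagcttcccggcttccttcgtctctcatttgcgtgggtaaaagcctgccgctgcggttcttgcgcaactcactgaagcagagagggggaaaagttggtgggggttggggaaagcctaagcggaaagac
Ptger4 upstream: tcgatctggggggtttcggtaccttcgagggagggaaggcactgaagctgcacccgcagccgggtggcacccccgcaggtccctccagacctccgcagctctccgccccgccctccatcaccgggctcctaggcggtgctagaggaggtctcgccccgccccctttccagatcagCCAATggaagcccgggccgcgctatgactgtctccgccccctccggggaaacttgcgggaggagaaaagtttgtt

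The motifs searched on both strands were the cAMP response element TGACGTCA, its core TGACG, the AP-1 site TGACTCA, the E-box CACGTG, the TATA box TATAAA, the M-CAT site CATTCC, the CCAAT box, the NF-kB site GGGNNTTCC and the CArG box. None of the 9 was found before the Ptgs2 start. Just after it, at chr1:150100036-150100065 on the plus strand, the core (read as CGTCA on this strand, bases 14 to 18 after the start) overlaps an E-box (bases 17 to 22) by 2 bases. The 9 bases of this arrangement are in capitals.
Ptgs2 site: caccactaCGTCACGTGgagtccgctttac
The overlapping arrangement was defined from the Ptgs2 window after its letters were seen. It was found in 148 of the 32851 promoter windows of all genes, or 0.451%, and nothing is read from this share. The core was in 20.8% of all windows and the E-box in 7.15%, with or without the other. Ptges3 also held the core, from base 12 after its start, and Ptges2 an E-box from 77 bases before its start. The CCAAT box, held by the windows of Ptger4, Ptger2 and Pla2g4a, was in 37.4% of all windows. The M-CAT site was found before the starts of Ptges and Ptges2 and in 14.7% of all windows. A TATA box was found in 1 of the 2 Pla2g4a windows and in 13.6% of all windows. The cAMP response element, AP-1 site, NF-kB site and CArG box, held by 1.79%, 5.20%, 5.82% and 1.63% of all windows, were in no member window, and the Ptgs1 window held none of the 9. These matches describe letters in the windows, and binding was not measured.

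Of the 10 members, 8 passed the filter on low values and were tested. Among these, Ptgs1, Ptgs2, Ptgis and Ptger4 rose and Pla2g4a and Ptges3 fell, so that 6 of 8 passed the adjusted p, against 46.7% of all genes tested, of which 22.6% rose and 24.1% fell. Ptgs2 and Ptger4 were differentially expressed, 2 of 8 against 3.88% of all genes, and no member was differentially expressed downwards. The groups did not overlap for 7 of the 8 members, while 56.7% of all genes showed no overlap. The median log2 fold change of the 8 was 0.07, beside -0.01 over all genes. The members did not move as a block: the synthesis genes ranged from -0.31 for Ptges3 to 1.15 for Ptgs2.

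**Figure D1:**
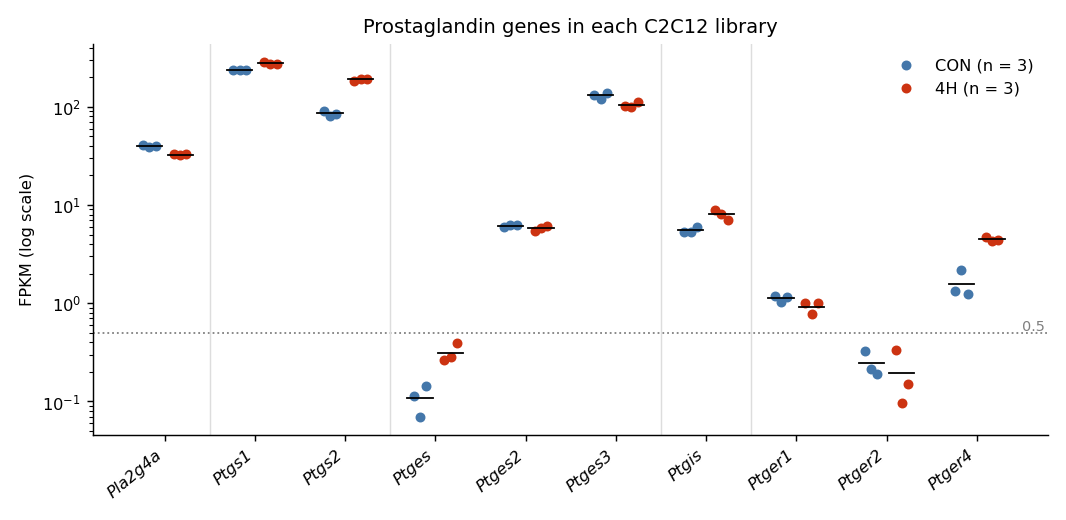
FPKM of the 10 prostaglandin genes on a log axis in each library, with a point for each of 3 CON (blue) and 3 4H (red) libraries and a line at the group mean; the dotted line is the filter of 0.5 FPKM. Ptgs2 and Ptger4 show the widest gaps between groups among the 8 members above the filter, and Ptges and Ptger2 lie below it.

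The order of levels in CON was Ptgs1, Ptges3, Ptgs2, Pla2g4a, Ptges2, Ptgis, Ptger4, Ptger1, Ptger2 and Ptges, from 238.2 down to 0.109 FPKM, and no neighbours in it overlapped. In 4H, Ptgs2 stood above Ptges3, Ptgis above Ptges2, and Ptges above Ptger2. The last pair was the only pair of neighbours in 4H whose libraries overlapped. Ptgs1 had the 187th highest mean of the 11593 genes tested, Ptgs2 the 406th and Ptges3 the 495th.

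Pla2g4a (ENSMUSG00000056220, chr1:149829618-149961290, minus strand, GRCm38) encodes cytosolic phospholipase A2, which cuts arachidonic acid from phospholipids. It measured 41.0, 39.1 and 40.1 FPKM in CON and 32.8, 32.2 and 32.7 FPKM in 4H. Every 4H library lay below every CON library. Its mean fell from 40.07 ± 0.953 to 32.5 ± 0.313 FPKM (mean ± SD here and below, n = 3 in each group), which is -0.30 on the log2 scale (SE 0.04, adjusted p = 0.000249, limma). Its next neighbour among the members, Ptgs2, starts 138741 bases from the 5′ end of Pla2g4a on the same chromosome, and the 2 genes are read away from each other.

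Ptgs1 (ENSMUSG00000047250, chr2:36230426-36252272, plus strand) was the most abundant member. It measured 238.9, 239.2 and 236.5 FPKM in CON and 287.1, 274.1 and 273.9 FPKM in 4H. The groups were apart, and 4H replicate 1 stood above the other two 4H libraries. The mean rose from 238.2 ± 1.51 to 278.3 ± 7.54 FPKM, a log2 fold change of 0.22 (SE 0.03, adjusted p = 0.000319, limma). Its exons overlap Gm43621 on the other strand by 148 bases.

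Ptgs2 (ENSMUSG00000032487, chr1:150100031-150108227, plus strand) measured 91.2, 80.4 and 85.3 FPKM in CON and 182.9, 193.3 and 193.1 FPKM in 4H. The lowest 4H library was above the highest CON library by a wide margin compared with the spread of either group. The mean rose 2.22-fold, from 85.6 ± 5.44 to 189.8 ± 5.94 FPKM. Its log2 fold change was 1.15 (SE 0.05, 95% interval 1.03 to 1.26, adjusted p = 8.80e-07, limma). Of the 11593 genes tested it had the 229th largest rise. Its mean over the 6 libraries was above that of 96.5% of the genes tested.

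The makeup of the cyclooxygenase pair differed between the groups. Ptgs2 made up 27.6%, 25.1% and 26.5% of the summed FPKM of the 2 genes in CON and 38.9%, 41.4% and 41.3% in 4H. The mean share was 26.4 ± 1.24% in CON and 40.5 ± 1.40% in 4H, a difference of 14.1 percentage points, with an exact two-sided permutation p of 0.1, the smallest that 3 against 3 libraries can give. The sum was 323.8 ± 5.57 FPKM in CON and 468.1 ± 1.61 FPKM in 4H, to which Ptgs2 added 104.2 FPKM and Ptgs1 40.1 FPKM. Ptgs1 remained the more abundant mRNA in all 6 libraries, 2.79 ± 0.179 times Ptgs2 in CON and 1.47 ± 0.0872 times in 4H.

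**Figure D2:**
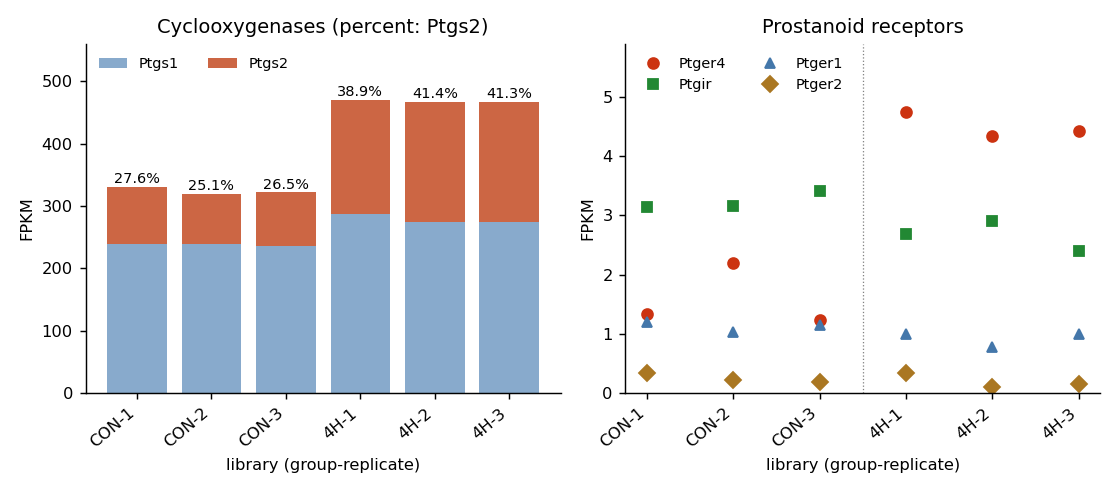
Left, stacked FPKM of Ptgs1 (blue) and Ptgs2 (orange) in each library, with the percent of Ptgs2 above each bar; right, FPKM of Ptger4, Ptgir, Ptger1 and Ptger2 in each library. The share of Ptgs2 was 25.1% to 27.6% in CON and 38.9% to 41.4% in 4H, and Ptger4 lay below Ptgir in every CON library and above it in every 4H library.

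The PGE2 synthase genes differed from each other in level and direction. Ptges (ENSMUSG00000050737, chr2:30889471-30929863, minus strand), the microsomal synthase that is often induced along with Ptgs2, was at 0.114, 0.0691 and 0.144 FPKM in CON and 0.266, 0.281 and 0.390 FPKM in 4H. It was below the filter and low in both groups, although every 4H library lay above every CON library. Without the filter its log2 fold change was 0.41 (SE 0.08, adjusted p = 0.0277, limma). After rescaling to TPM it was 0.75, but there Ptges passed the filter through its 4H level, and nothing is read from that test.

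Ptges2 (ENSMUSG00000026820, chr2:32395896-32405772, plus strand), another membrane-associated synthase, measured 5.99, 6.24 and 6.19 FPKM in CON and 5.48, 5.79 and 6.08 FPKM in 4H. The groups overlapped. The log2 fold change was -0.08 (SE 0.07, adjusted p = 0.359, limma), with a 95% interval of -0.23 to 0.07.

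Ptges3 (ENSMUSG00000071072, chr10:128058954-128077272, plus strand) encodes the cytosolic synthase, a protein also known as the Hsp90 co-chaperone p23. It measured 132.5, 118.7 and 139.4 FPKM in CON and 102.6, 99.2 and 112 FPKM in 4H. The groups were apart, but the highest 4H library was close to the lowest CON library. Its mean fell from 130.2 ± 10.6 to 104.6 ± 6.60 FPKM, a log2 fold change of -0.31 (SE 0.07, adjusted p = 0.00503, limma). The adjusted p was 0.0613 when no filter on low values was used, which ends the call, and 18.5% of the 75-base stretches of its transcripts recur in the loci Gm11893 and Ptges3-ps, so that its level is uncertain where reads were shared among copies. No such stretch was found for the other 9 members. Ptges3 held 95.4 ± 0.389% of the summed FPKM of the 3 synthase genes in CON and 94.5 ± 0.232% in 4H.

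Ptgis (ENSMUSG00000017969, chr2:167191805-167240604, minus strand) encodes prostacyclin synthase, which draws on the same PGH2. It measured 5.36, 5.36 and 5.96 FPKM in CON and 8.93, 8.17 and 7.10 FPKM in 4H. All 4H libraries were above all CON libraries, with more spread in 4H. The mean rose from 5.56 ± 0.347 to 8.07 ± 0.917 FPKM, a log2 fold change of 0.49 (SE 0.09, adjusted p = 0.00270, limma). Its exons overlap 1110018N20Rik on the other strand by 156 bases.

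**Figure D3:**
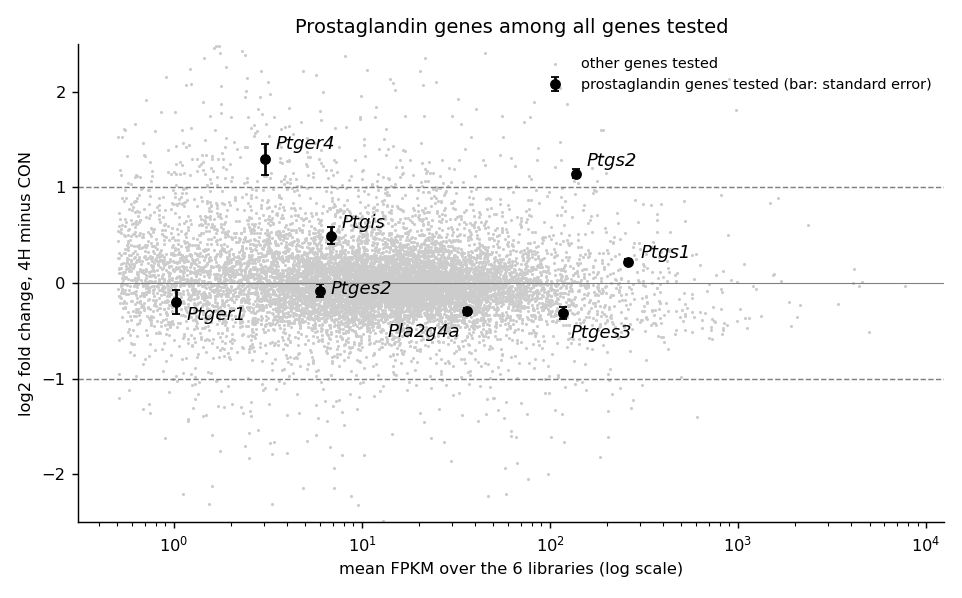
Log2 fold change against mean FPKM (log axis) for the genes tested, with the 8 tested members in black and their standard errors as bars; dashed lines mark a log2 fold change of 1 in either direction, and 18 genes lie outside the plotted range. Ptgs2 and Ptger4 lie above the upper dashed line, at 1.15 and 1.29, and the other 6 members lie between the lines.

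Among the PGE2 receptor genes, Ptger4 had the largest difference. Ptger4 (ENSMUSG00000039942, chr15:5206661-5244187, minus strand) encodes EP4, a receptor that couples to Gs and raises cAMP. It measured 1.34, 2.19 and 1.23 FPKM in CON and 4.75, 4.34 and 4.44 FPKM in 4H. CON replicate 2 was above the other CON libraries but well below every 4H library. The mean rose 2.85-fold, from 1.58 ± 0.526 to 4.51 ± 0.212 FPKM. Its log2 fold change was 1.29 (SE 0.16, 95% interval 0.92 to 1.67, adjusted p = 0.000354, limma). This was the 164th largest rise among the genes tested. On the other strand, Gm15937 shares 15.3% of the exonic bases of Ptger4 and Ttc33 82 bases. Ttc33 was at 17.3 FPKM in CON and 15.9 FPKM in 4H. Whether the counting used strand is not given in the sources used here.

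Ptger1 (ENSMUSG00000019464, chr8:83666678-83672753, plus strand) encodes EP1, which signals through calcium. It measured 1.19, 1.03 and 1.16 FPKM in CON and 0.995, 0.776 and 0.995 FPKM in 4H. The groups were apart by a narrow gap, with 4H lower, and the difference did not pass the test (log2 fold change -0.20, SE 0.12, adjusted p = 0.234, limma, 95% interval -0.48 to 0.09). The level of Ptger1 is uncertain if the counting did not use strand.

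Ptger2 (ENSMUSG00000037759, chr14:44988195-45003820, plus strand) encodes EP2, which like EP4 couples to Gs. It measured 0.329, 0.215 and 0.188 FPKM in CON and 0.337, 0.0961 and 0.152 FPKM in 4H. It was below the filter, and the groups overlapped. On the other strand, Gm17173 and Gm49364 overlap its exons by 246 and 144 bases. Without the filter, the log2 fold change was -0.11 (adjusted p = 0.846, limma), and -0.19 after rescaling to TPM (adjusted p = 0.640, limma).

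Ptger4 held a larger share of the PGE2 receptor mRNA in every 4H library than in any CON library. Of the summed FPKM of Ptger1, Ptger2, Ptger3 and Ptger4, it held 45.6%, 63.7% and 47.2% in CON and 77.1%, 83.3% and 79.2% in 4H. The sum was 2.99 ± 0.420 FPKM in CON and 5.66 ± 0.475 FPKM in 4H. Both the share and the sum depend on the level of Ptger1, which is uncertain if the counting did not use strand. Ptgir, the prostacyclin receptor gene and the one prostanoid receptor gene outside the members that passed the filter, was at 3.14, 3.16 and 3.41 FPKM in CON and 2.68, 2.90 and 2.40 FPKM in 4H. Those libraries did not overlap, but its log2 fold change of -0.24 did not pass the test (adjusted p = 0.0624, limma), although it passed without a trend (adjusted p = 0.0306) and with quantile normalization (adjusted p = 0.0188). The ratio of Ptger4 to Ptgir was 0.425, 0.693 and 0.359 in CON and 1.77, 1.50 and 1.85 in 4H. The remaining receptor genes, named after their values were seen, were low: Ptger3, Ptgfr, Ptgdr2 and Tbxa2r had means of at most 0.0914 FPKM, and Ptgdr was listed at 0 in all libraries.

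The pathway around the members was read from 9 lists, which together hold 173 gene symbols. A few genes are listed under an older name as well. Of the 173 symbols, 169 were in the table and 115 were tested. Of these 53 rose, 18 fell and 44 did not pass the adjusted p, so that 61.7% passed, against 46.7% of all genes. The 7 that were differentially expressed, 6.09% of the 115 against 3.88% of all genes, all rose, as did 302 of the 450 differentially expressed among all genes tested (67.1%). Of the 7, Mgll, Fos and Fosb were below 0.5 FPKM in CON and passed the filter through their 4H level, so nothing is read from the share. With no filter, these 3 genes were also differentially expressed (limma). The median log2 fold change was 0.17. In the lists closest to the synthases and receptors, few genes were measurable. Of the 12 symbols of other synthases and reductases, 10 were in the table and 5 were tested, of which 1 rose and 1 fell (40% past the adjusted p, median -0.11). Of the 7 other receptors and regulators, 2 were tested, of which 1 fell (50%, median -0.24). Gstm1, a glutathione transferase, fell by 0.34 on the log2 scale (adjusted p = 0.00187, limma), and the carbonyl reductase gene Cbr3 had a log2 fold change of -0.11 (adjusted p = 0.171, limma, and 0.0360 without 4H replicate 3). Ptgfrn, whose protein binds the PGF2 alpha receptor, fell from 41.8 ± 2.13 to 35.2 ± 0.285 FPKM (adjusted p = 0.00209, limma). Hpgd, the main enzyme of prostaglandin breakdown and named after its values were seen, was listed above 0 in 1 library only, at 0.0278 FPKM in CON replicate 1, beside the high levels of Ptgs1 and Ptgs2.

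Among genes of prostanoid transport and breakdown, 4 of 7 tested rose and 2 fell (median 0.25), so that 85.7% passed the adjusted p, against 46.7% of all genes. Slco4a1, an organic anion transporter, rose from 29.9 ± 2.99 to 48.9 ± 6.03 FPKM, and Ptgr1, a prostaglandin reductase, had a log2 fold change of 0.04 (adjusted p = 0.405, limma). For the other phospholipases A2 and arachidonate supply, 5 of 13 rose and 1 fell (median 0.20). The 1 differentially expressed gene, Mgll, which frees arachidonic acid by cutting monoacylglycerols, went from 0.306 ± 0.0793 to 1.20 ± 0.234 FPKM (1.07 on the log2 scale, SE 0.16, adjusted p = 0.000762, limma). It stood just above the fold threshold and fell below it under several settings, and with the filter at 1 FPKM it was not tested. The most abundant genes of the list were Plaa, which rose by 0.20, and Pafah1b2, at -0.06 (adjusted p = 0.441, limma). The gene that fell was the phospholipase A2 gene Pla2g12a, named after its values were seen, with a log2 fold change of -0.73. The share of this list that passed, 46.2%, was near that of all genes, 46.7%.

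Among genes that return arachidonate to membranes or inhibit phospholipase A2, 11 of 16 rose and 3 fell (median 0.24), so that 87.5% passed the adjusted p, against 46.7% of all genes. Anxa2 and S100a10, partners in an annexin complex known to bind phospholipids and cytosolic phospholipase A2, rose by 0.50 and 0.28. In the lipoxygenase branch, which draws on the same arachidonic acid to make leukotrienes, 4 of 5 tested rose (80%, against 22.6% of all genes) and none fell (median 0.62). Alox5, the gene of arachidonate 5-lipoxygenase, was at 12.1, 15.0 and 12.9 FPKM in CON and 29.6, 27.7 and 27.0 FPKM in 4H. It rose by 1.05 (SE 0.08, adjusted p = 1.91e-05, limma), near the 1.15 of Ptgs2, and the groups did not overlap. Mgst3 rose from 20.3 ± 0.471 to 27.2 ± 2.56 FPKM, and Lta4h, which makes leukotriene B4, measured 51.6 FPKM in CON and 51.7 FPKM in 4H.

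**Figure D4:**
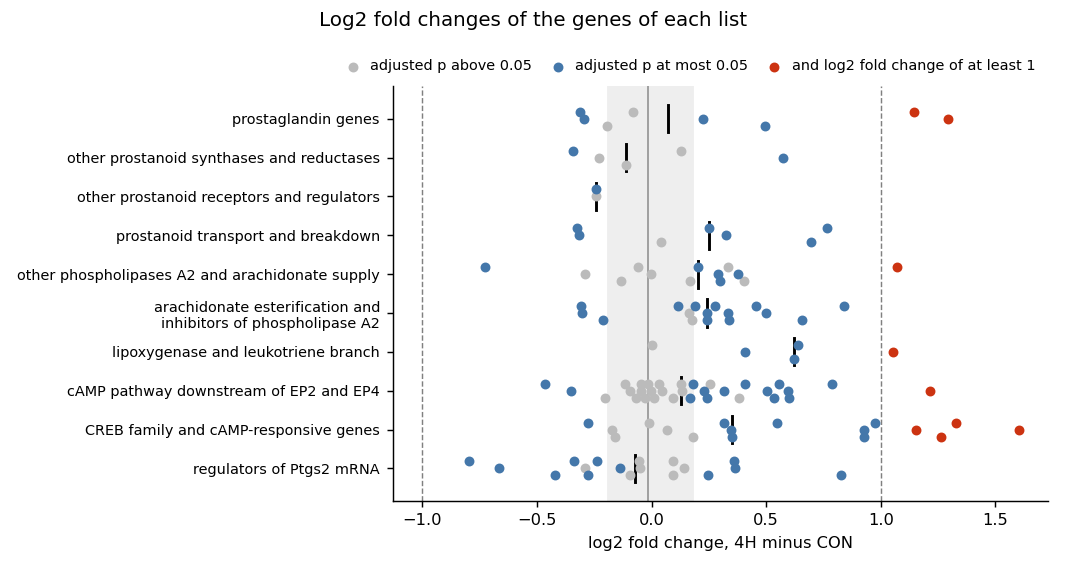
Log2 fold change of each tested gene of the 10 prostaglandin genes and of the 9 related lists, coloured by whether it passed the adjusted p and the fold threshold; black bars are list medians, the grey line and band the median and interquartile range of all genes tested, and dashed lines a log2 fold change of 1. The 9 differentially expressed genes, 2 members and 7 others, are all on the side where 4H was higher, as were 302 of the 450 among all genes tested.

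Because EP4 and EP2 raise cAMP, genes of that route were listed too. For the cAMP pathway 13 of 32 tested rose and 2 fell (median 0.13), so that 46.9% passed the adjusted p, near the 46.7% of all genes. Akap12, a scaffold of protein kinase A, rose from 9.64 ± 0.447 to 22.99 ± 0.118 FPKM (1.21 on the log2 scale, SE 0.05, adjusted p = 7.32e-07, limma). Of the abundant G protein genes, Gnas, whose protein activates adenylyl cyclase, had a log2 fold change of -0.05 (adjusted p = 0.327, limma) and Gnai2, whose protein inhibits it, rose by 0.17. The 2 genes of the list that fell, named after their values were seen, were Pde3a and Pde3b, with log2 fold changes of -0.35 and -0.47, and 3 other phosphodiesterase genes, Pde4a, Pde4b and Pde4d, also named after their values were seen, rose by 0.24, 0.56 and 0.59.

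The CREB family and cAMP-responsive genes held 4 differentially expressed genes of 17 tested (23.5%, against 3.88% of all genes). Of the 17, 11 rose (64.7%, against 22.6% of all genes) and 1 fell (median 0.35). The shares include Fos and Fosb, which passed the filter through their 4H level, so nothing is read from the shares. The count of differentially expressed genes, 4 as reported, was 3 with the filter at 1 FPKM or a pseudocount of 1, and 2 with the filter at 5 FPKM. It was 6 after rescaling to TPM, and 5 with a pseudocount of 0.1 or without CON replicate 1, CON replicate 3 or 4H replicate 1. The 4 were the orphan nuclear receptor genes Nr4a1 and Nr4a2 and the AP-1 genes Fos and Fosb, which many other signals also induce. Nr4a1 rose from 4.04 ± 0.173 to 10.4 ± 1.39 FPKM and Nr4a2 from 10.0 ± 0.628 to 22.9 ± 1.28 FPKM, log2 fold changes of 1.26 and 1.15. Fos and Fosb were low in CON, at 0.185 ± 0.0539 and 0.295 ± 0.108 FPKM, and reached 1.22 ± 0.156 and 1.90 ± 0.0982 FPKM in 4H, and they passed the filter through their 4H level. Junb, the most abundant of the list, rose by 0.34, and Atf1, a CREB relative, fell by 0.28.

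Among 18 tested regulators of Ptgs2 mRNA, 4 rose (22.2%, near the 22.6% of all genes) and 7 fell (24.1% of all genes fell), with a median of -0.07, and none was differentially expressed, against 3.88% of all genes. The most abundant were Zfp36l2, which binds AU-rich elements and promotes decay and rose by 0.25, and Hnrnpd, another AU-rich element binding protein, which fell by 0.24. Cebpb, a transcription factor known to act on the Ptgs2 promoter and named after its values were seen, fell from 42.6 ± 3.21 to 24.3 ± 1.71 FPKM (-0.80 on the log2 scale, adjusted p = 3.71e-05, limma). Usf1, which binds the E-box and was also named after its values were seen, fell from 30.4 ± 0.764 to 22.6 ± 2.09 FPKM. The genes of the list that rose beside Zfp36l2, also named after their values were seen, were Zfp36l1, Nfkb1 and Zfp36. Their log2 fold changes were 0.83, 0.36 and 0.36.

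Likeness of pattern was measured by the Euclidean distance of centred log2(FPKM + 0.5) values over the 6 libraries, among 8584 genes whose mean was 5 FPKM or more. It mostly ranks genes by how near their difference between the groups is. The 5 genes most like Ptgs2 were Fam110c, Dusp6, Adam8, Arhgap31 and Serpine2, at distances of 0.0620 to 0.135 and with log2 fold changes of 1.10 to 1.20. Fam110c went from 5.99 ± 0.359 to 14.1 ± 0.453 FPKM and Dusp6, a phosphatase of the ERK kinases, from 17.4 ± 0.755 to 40.5 ± 1.20 FPKM. Those most like Ptger4 were Foxs1, Col5a3, Anxa8, Lbh and Nefl, at distances of 0.326 to 0.380. Of the genes named outside the members, Mgll, Anxa2, Gnas, Junb, Zfp36l2, Hnrnpd, Adam8 and Nefl also share exonic bases with a gene on the other strand, and their values are uncertain to that extent. With a pseudocount of 1 in place of 0.5, 2 of the 5 genes stayed on each list, Fam110c and Dusp6 for Ptgs2 and Lbh and Col5a3 for Ptger4.

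**Figure D5:**
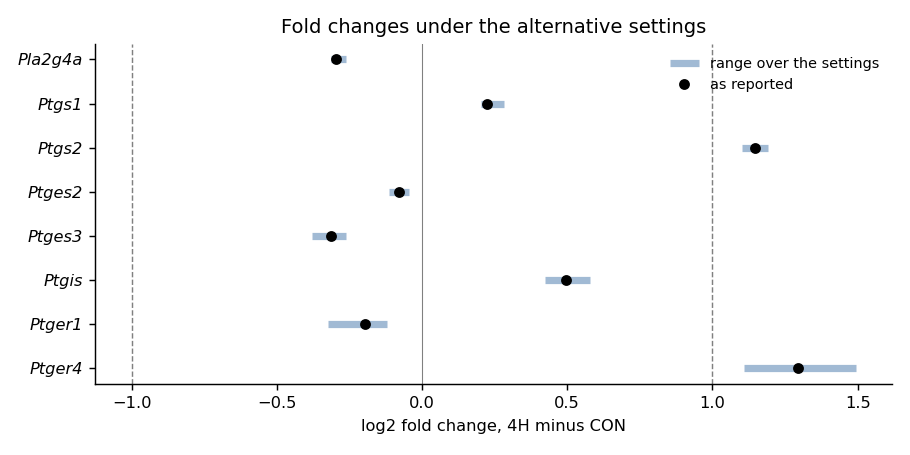
Log2 fold change of the 8 tested members as reported (points) and its range over the alternative settings (bars); dashed lines mark a log2 fold change of 1. Ptgs2 ranged from 1.10 to 1.19 and Ptger4 from 1.11 to 1.49, both above 1 throughout, and no member changed sign.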

How the data were processed

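Poly(A) RNA of C2C12 cells was sequenced as strand-specific paired-end libraries on an Illumina HiSeq, 3 CON and 3 4H. The authors deposited 1 table of FPKM values, with a column per library. The submitters' processing notes name the build mm10, while for the aligner, counter, annotation and use of strand in counting the answer is not given in the sources used here. FPKM holds no depth, so no counting error is given. The summed FPKM was 395790 to 397260 in CON and 385146 to 387516 in 4H, and Pearson's r of log2 values was 0.992 to 0.993 within groups and 0.967 to 0.970 between them. The libraries titled 4H1, 4H3 and 4H4 are 4H replicates 1, 2 and 3 of the labels. The authors' thresholds were kept, but their DESeq2 test needs counts, so limma 3.58.1 (R 4.3.3; linear fit, moderated with a mean trend) was run on log2(FPKM + 0.5), two-sided, over genes averaging 0.5 FPKM or more, with Benjamini-Hochberg adjustment. The step was tested on simulated data. Positions and overlaps came from GENCODE M21 (GRCm38), and promoters from RefSeq.

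The members, the lists and the tests were chosen with earlier results of these data known. Genes were named by a rule: all members, from each related list the differentially expressed genes and the 2 of highest mean FPKM, the 5 genes most like Ptgs2 and the 5 most like Ptger4, and genes overlapping a member. Of the overlaps, 1 is not reported here. Genes outside the rule are marked in the text, and marker genes are named as checks of the cell type. The 17 alternatives were a pseudocount of 0.1 or 1, a filter of 1 or 5 FPKM or none, a replicate block, no trend, array weights, 3 rescalings (quantile, median of ratios, TPM), and each of the 6 libraries left out. Python 3.11.15 with pandas 2.3.3, SciPy 1.17.1 and matplotlib 3.10.9 made the tables and plots.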

Additional observations from a re-analysis of the deposited data

How the results depend on the processing

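Under the 17 alternatives, Ptgs2 stayed differentially expressed in every one (log2 fold change 1.10 to 1.19), and Ptger4 in all 16 in which it was tested (1.11 to 1.49). With the filter raised to 5 FPKM, which leaves out Ptger4, 1 member and 4 genes of the related lists were differentially expressed, in place of 2 and 7. The count over all genes, 450 as reported, was 245 with that filter and 703 after rescaling to TPM. The one call among the members that was lost was that of Ptges3 without a filter. Mgll fell below a log2 fold change of 1 with a pseudocount of 1 (0.75), with quantile normalization (0.92), without CON replicate 1 (0.99) and without 4H replicate 3 (0.96), Alox5 without CON replicate 1 (0.99), and Fos with a pseudocount of 1 (0.90). The only changes of sign were in genes not past the test, Pafah1b2 (-0.1203 to 0.0025 with a library left out, above 0 without CON replicate 2), Lta4h (-0.0193 to 0.0310 with a library left out, below 0 without CON replicates 1 and 3 and 4H replicates 1 and 3) and Gnas (0.0406 with quantile normalization). The causes were not tested. The replicate numbers of the labels did not pair the libraries, with correlations of same-numbered deviations of 0.0250, -0.0929 and -0.126. With a block on these numbers, 452 genes were differentially expressed, 2 of them members. By title, CON replicate 3 and 4H replicate 2 share a number, and their correlation was 0.176. A block on the titles was not tested. FPKM holds no depth, so the precision of the low genes Ptges and Ptger2 rests on 3 libraries a group.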
